A study of Mus musculus with 32 samples.

Results

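Germ cells of male mouse fetuses whose dams had received di-(2-ethylhexyl) phthalate (DEHP), a plasticizer, were compared with those of male fetuses whose dams had received vehicle only. The comparison rests on 6 of the 32 arrays of the series, namely the 3 labelled G1R DEHP M and the 3 labelled G1R Oil M, which were selected by their titles. G0 dams of the FVB strain mated with OG2 sires were gavaged daily from 12.5 days post coitum (dpc) with 750 mg/kg/day DEHP or with tocopherol-stripped corn oil, and the gonads of the G1 fetuses were collected at 17.5 dpc. The cells of both groups carried the OG2 transgene, in which the Oct4 promoter drives EGFP, and those sorted as EGFP-positive by flow cytometry were used. The labels call the cells primordial germ cells and the genotype FVBxOG2. The sort selects cells with an active transgene rather than a cell type as such. Values of female germ cells of the G1 fetuses (2 DEHP and 3 oil arrays), of G1 males exposed from the same day to 0.2 mg/kg/day bisphenol A (BPA) or 100 mg/kg/day vinclozolin (VZ), and of G2R males are set beside the comparison where they bear on it. The G2R males, of genotype OG2xFVB and also taken at 17.5 dpc, were fetuses of OG2 females and adult G1 males whose own dams had received DEHP or oil, and they were never dosed. Total RNA was hybridised to Affymetrix Mouse Gene 1.0 ST arrays, and values are log2 signals, so that a difference of 1 is a doubling of signal. No source states whether the 3 arrays of a group came from separate litters, so p-values measure the spread between arrays, which may be technical in part. The study's run names list all oil males ahead of all DEHP males. Whether that is the order of hybridisation or scanning is not given in the sources used here, and if it is, order and treatment cannot be told apart.

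Prospermatogonia, the fetal male germ cells, leave the cell cycle in midgestation and rest in G0/G1 while DNA methylation, including paternal imprints, is laid down again by DNMT3A and its cofactor DNMT3L. DEHP is hydrolysed in the body to its monoester, a ligand of the peroxisome proliferator-activated receptors (PPARs). In the fetal testis of the rat, phthalates are best known for lowering androgen synthesis by Leydig cells and for disturbing the germ cells inside the cords.

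Only 2 of 35556 probes (0.00562%) passed the test at an adjusted p under 0.05 (limma with Benjamini-Hochberg adjustment over all probes), and each names a single gene. Tlcd4, which encodes a membrane protein with a TLC domain, rose in DEHP-exposed germ cells. Its signal was 7.50, 7.64 and 7.50 in the oil arrays and 8.11, 8.10 and 8.20 in the DEHP arrays. The 3 DEHP values lay above all oil values, with a difference of 0.59 (SE 0.0945), or 1.51-fold, and an adjusted p of 0.0274 in limma. The mean signal of Tlcd4 was 7.54 ± 0.0811 (SD, n = 3) in oil and 8.14 ± 0.0552 (SD, n = 3) in DEHP males. The BPA and VZ males were compared with these same oil arrays, and their Tlcd4 signal differed from oil by 0.26 and 0.46. Between DEHP and VZ males, which share no array, Tlcd4 differed by 0.13, with an adjusted p of 0.999 in limma. In female germ cells of the same stage the Tlcd4 signal was far higher than in males, with means of 10.24 in both the oil and the DEHP females.

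Hbb-bh2, a gene of the beta-globin cluster, fell. Its signal was 6.29, 6.49 and 6.53 in the oil arrays and 5.87, 5.71 and 5.95 in the DEHP arrays. The DEHP values all lay below the oil values, and the difference was -0.60 (SE 0.0912), a 1.51-fold lower signal, with an adjusted p of 0.0274 in limma. Hbb-bh2 differed from the same oil arrays by -0.25 in both BPA and VZ males, and between DEHP and VZ males by -0.34 (SE 0.0912, unadjusted p of 0.000897, adjusted p of 0.873 in limma). The 6 oil and DEHP values of Hbb-bh2 lay under 6.7, the log2 signal below which probes were treated as dim. Hbb-bh2 is also a member of the red blood cell marker list, of which 8 genes were measured. The mean signal of those 8 genes ranged from 6.37 to 6.43 in the oil arrays and from 6.16 to 6.29 in the DEHP arrays. That mean includes Hbb-bh2 itself, so its lack of overlap is not separate from the Hbb-bh2 result. Of the 8 members 7 had a negative difference, and the list median was -0.14 at a dim median level of 6.21. All genes with a mean level under 7 had a median of -0.09. Epb42, a red cell membrane protein gene, differed by -0.23 without overlap and with an adjusted p of 0.309 in limma, while Alas2, the erythroid enzyme of heme synthesis, differed by -0.12 with overlap. The part of red blood cell RNA in the Hbb-bh2 result was not tested.

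Both calls depended on single arrays and on the arrays that shared the fit. Tlcd4 passed when DEHP replicate 1 was left out (adjusted p of 0.0442) and missed with each of the other 5 arrays left out in turn, where its adjusted p lay between 0.0561 and 0.175. Hbb-bh2 passed without oil replicate 1, DEHP replicate 1 or DEHP replicate 3 and missed without oil replicate 2 (0.0715), oil replicate 3 (0.0811) or DEHP replicate 2 (0.112). With only the 6 arrays in the fit, neither passed, at adjusted p of 0.26 for Tlcd4 and 0.277 for Hbb-bh2.

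**Figure D1:**
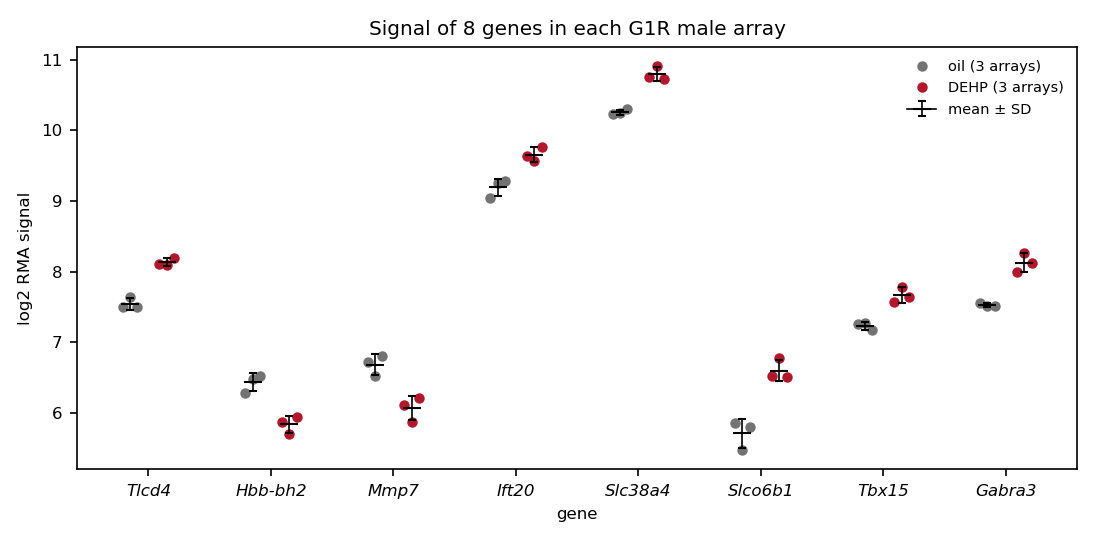
Log2 RMA signal (vertical axis) of 8 genes (horizontal axis) in the 3 oil and 3 DEHP arrays of G1R males, with a point per array and bars at the mean ± SD. Tlcd4 and Hbb-bh2 passed the test across all probes, the other 6 missed it, and in all 8 the DEHP points lie apart from the oil points.

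A further set of genes lay just outside the threshold. They were chosen after their values were seen, as those with the smallest p. Slc38a4, an imprinted gene for an amino acid transporter, gave 10.23, 10.25 and 10.30 in oil and 10.76, 10.91 and 10.73 in DEHP males. Its oil values spanned a narrow range well under the lowest DEHP value, with a difference of 0.54 (SE 0.101) and an adjusted p of 0.0528 in limma. Ift20, a subunit of the intraflagellar transport complex that builds cilia, gave 9.05, 9.25 and 9.28 in oil and 9.64, 9.57 and 9.77 in DEHP males. The difference of Ift20 was 0.47 (SE 0.0857) at the same adjusted p. Mmp7, the matrix metalloproteinase matrilysin, was the widest of those lower, with 6.72, 6.52 and 6.81 in oil and 6.11, 5.88 and 6.22 in DEHP males. Its signal was dim, with means of 6.68 and 6.07 under the boundary of 6.7. None of its DEHP values reached the lowest oil value (difference -0.62, SE 0.113, adjusted p of 0.0528 in limma). Slco6b1, of the organic anion transporter family, had the highest difference of all 19938 genes, 0.89 (SE 0.166), but from a dim signal, with 5.86, 5.48 and 5.81 in oil and 6.52, 6.78 and 6.51 in DEHP males. The T-box transcription factor gene Tbx15 was higher by 0.44, the actin-binding twinfilin gene Twf1 by 0.52, the methyltransferase gene Mettl15 by 0.54 and Pdzd8, whose product tethers membranes of the endoplasmic reticulum, by 0.51, each with an adjusted p of 0.0528 in limma. Gabra3, a subunit gene of the GABA-A receptor on the X chromosome, was higher by 0.61 with an adjusted p of 0.0616.

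The BPA and VZ males were compared with the same oil arrays, so the spread of those oil arrays enters all 3 differences. For Slc38a4 the differences from oil were 0.54 for DEHP, 0.28 for BPA and 0.40 for VZ. For Ift20 they were 0.47, 0.20 and 0.42, and for Mmp7 -0.62, -0.22 and -0.44 in the same order. For Slco6b1 they were 0.89, 0.36 and 0.48. Between DEHP and VZ males, which have no array in common, Slc38a4 differed by 0.15, Ift20 by 0.04, Mmp7 by -0.18 and Slco6b1 by 0.41, each with an adjusted p of 0.999 in limma.

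At the looser threshold of an unadjusted p under 0.05 and a 1.5-fold difference, 330 of 35556 probes (0.928%) passed, 205 higher (0.577%) and 125 lower (0.352%) in DEHP males. Of these 330 probes, 280 lie outside the annotation used here, among 12146 such probes on the array, whereas 47 of 21789 probes that name a single gene passed, 39 higher and 8 lower. Under cyclic loess normalization the split of the looser calls was 298 higher and 85 lower, and without DEHP replicate 2 it was 220 higher and 221 lower. The share of higher calls thus moved with the scaling and with 1 array. Of the single-gene probes, 32 higher and 3 lower were not dim. The boundary was set on the mean of the oil and DEHP arrays together, so a higher gene could pass it through its DEHP values. Among the higher genes named below, Pls3, Olfr937, Fat3, Platr8, Slco4c1, Igf2bp1 and Fam71e2 had oil means under 6.7 (6.43 to 6.66). The oil means of Gabrb2, Dach1, Sgo2b, Clvs2 and Pcbd1 lay above it, from 6.99 to 8.78.

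The 15 genes with the widest differences at the looser threshold, 12 higher and 3 lower, all missed the adjusted test and had adjusted p between 0.0724 and 0.254 in limma. Pls3, which encodes the actin-bundling plastin 3, gave 6.35, 6.30 and 6.64 in oil and 6.73, 7.99 and 7.08 in DEHP males. Its difference of 0.83 (SE 0.263) was the highest of the 15, and DEHP replicate 2 stood well above the other DEHP arrays. That array also had the highest mean of the 12 peritubular and interstitial markers among the 6 (7.91, against 7.40 and 7.35 in the other DEHP arrays and 7.56, 7.27 and 7.71 in oil), and the part of such RNA in the Pls3 value was not tested. Platr8, a noncoding RNA of pluripotent cells, was higher by 0.80 (SE 0.184), with 6.35, 6.60 and 6.62 in oil and 7.11, 7.64 and 7.22 in DEHP males. Slco4c1, a further organic anion transporter, was higher by 0.78 (SE 0.163), the closest of the 15 to the threshold.

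Gabrb2, like Gabra3 a GABA-A receptor subunit gene, was higher by 0.77 (SE 0.207) at the probe chosen, and Dach1, a transcriptional cofactor of organ development, by 0.74 (SE 0.199). Igf2bp1, which encodes an RNA-binding protein, gave 6.77, 6.31 and 6.81 in oil and 7.14, 7.49 and 7.45 in DEHP males, a difference of 0.73 (SE 0.155). A second, brighter probe of Igf2bp1 gave a difference of 0.30. Pcbd1, a pterin dehydratase that also serves as a cofactor of HNF1 transcription factors, was higher by 0.72, the shugoshin gene Sgo2b by 0.70 and the atypical cadherin gene Fat3 by 0.66. The olfactory receptor gene Olfr937 was higher by 0.78, Fam71e2 by 0.72 and Clvs2, which encodes a lipid-binding clavesin, by 0.68. The 3 lower genes were the olfactory receptor gene Olfr767 (-0.66), the actin-binding calponin gene Cnn2 (-0.65) and Tmem38b (-0.61), a cation channel of the endoplasmic reticulum. Tmem38b gave 8.92, 7.87 and 7.90 in oil and 7.63, 7.85 and 7.37 in DEHP males, so oil replicate 1 stood well above the rest. Its difference ranged from -0.80 to -0.27 with an array left out.

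**Figure D2:**
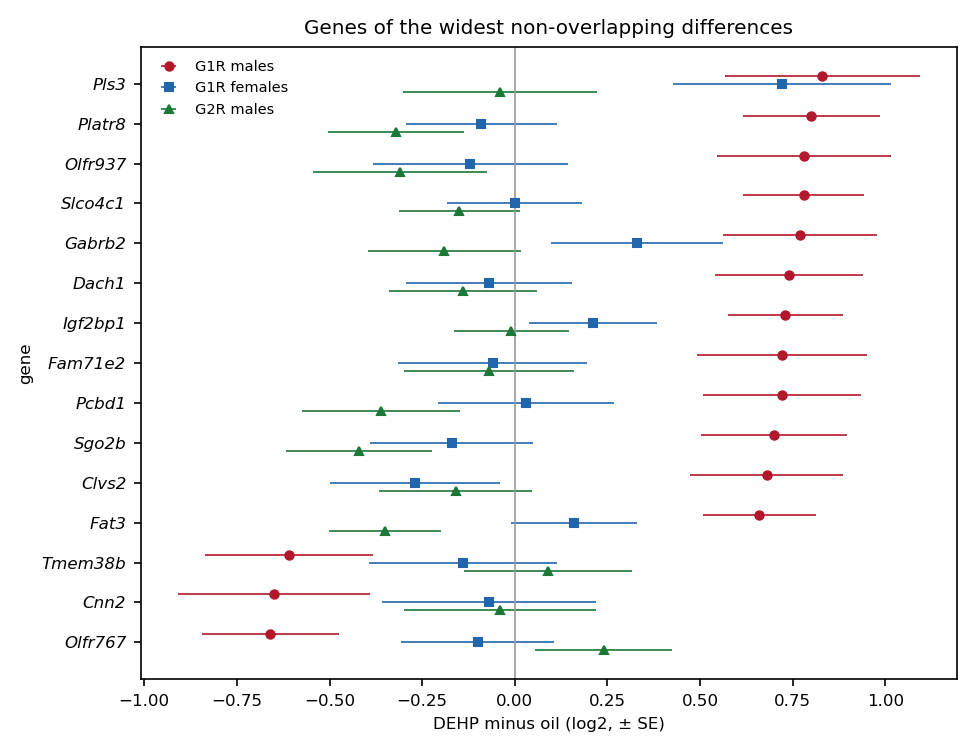
DEHP minus oil (horizontal axis, log2, with SE bars) of the 15 genes with the widest non-overlapping differences in G1R males, beside the same difference in G1R females and in G2R males, which have oil controls of their own. The genes were chosen on the male values. In G2R males the values of the 12 higher genes all lie under 0, from -0.01 (SE 0.155) for Igf2bp1 to -0.42 (SE 0.197) for Sgo2b. None of these 12 passed the adjusted test there (adjusted p of 0.703 or more in limma). All but Pcbd1 had an oil female mean under 6.7.

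Germ cells of the female fetuses and of the next generation provide oil controls of their own. Among the 32 higher genes that were not dim over the 6 male arrays, the female difference was positive for 19 (59.4%). The share was 55.6% over all 9512 genes with a positive difference in males. The female median of the 32 was 0.02, against 0.65 in the males that chose the genes. Of the 12 higher genes named above, all but Pcbd1 (6.84) had an oil female mean under 6.7, such as Gabrb2 at 5.08. At so dim a signal, a female difference near 0 does not show that DEHP had no effect. In G2R males, 2 of the 32 (6.25%) had a positive difference, against 45.9% of all 9512, and the median was -0.15. The arrays of females gave 0 calls at an adjusted p under 0.05 in limma and 2234 probes (6.28%) at an unadjusted p under 0.05. The 3 DEHP and 3 oil arrays of G2R males gave 0 and 2456 (6.91%), against 5117 (14.4%) in the exposed males. The difference of the effects itself passed for 0 probes between males and females and for 0 between G1R and G2R males in limma, with 2656 (7.47%) and 4740 (13.3%) probes at an unadjusted p under 0.05. The count of 0 between G1R and G2R males did not hold under every setting, with 604 probes without G2R DEHP replicate 2, 8 without oil replicate 3, 22 with array quality weights and 15 over single-gene probes. The larger number at an unadjusted p in exposed males is no test of a difference.

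For Tlcd4 the difference was 0.59 in exposed males, 0.00 (SE 0.106) in females and 0.07 (SE 0.0945) in G2R males. The male effect exceeded the female one by 0.59 (SE 0.142, adjusted p of 0.45 in limma) and the G2R one by 0.52 (SE 0.134, adjusted p of 0.13). Hbb-bh2 differed by -0.27 (SE 0.102) in females and by -0.04 (SE 0.0912) in G2R males, and neither gap to the male value passed (adjusted p of 0.612 and 0.116). The smallest adjusted p for a gap between males and females belonged to Dnah17, an axonemal dynein gene, at -0.26 in males and 0.29 in females (0.164 in limma). Between G1R and G2R males the genes with the smallest p were Nrl, a leucine zipper transcription factor, at -0.37 and 0.29, the centrin gene Cetn4 at 0.64 and -0.59, and the DNA-binding protein gene Arid3c at 0.34 and -0.40, each with an adjusted p of 0.0904.

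Small differences of 1 sign were common and followed the signal level of the genes. With 1 probe taken per gene, 3214 of 19938 genes (16.1%) had an unadjusted p under 0.05, 1733 higher (8.69%) and 1481 lower (7.43%), and in 4595 genes (23%) the 3 DEHP and 3 oil values did not overlap, 2330 higher (11.7%) and 2265 lower (11.4%). The median difference was -0.09 over the 6456 genes with a mean level under 7, where 167 were higher (2.59%) and 752 lower (11.6%) at that p. It was 0.06 over the 6637 genes with a mean level from 8 to 10, where 984 were higher (14.8%) and 226 lower (3.41%). In females the medians were -0.04 and 0.03, and in G2R males 0.05 and -0.02. Under cyclic loess the male medians were -0.02 and 0.05, under quantile normalization -0.04 and 0.01, and with the BPA and VZ males in place of the oil males -0.01 and 0.02. Counts of weakly higher or lower members of a list are therefore given with the level in mind. Lists of genes at levels from 8 to 11 started from a background of higher values and lists of dim genes from one of lower values. At levels of 11 or more the median was 0.02, with 7.45% higher and 3.96% lower at that p.

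**Figure D3:**
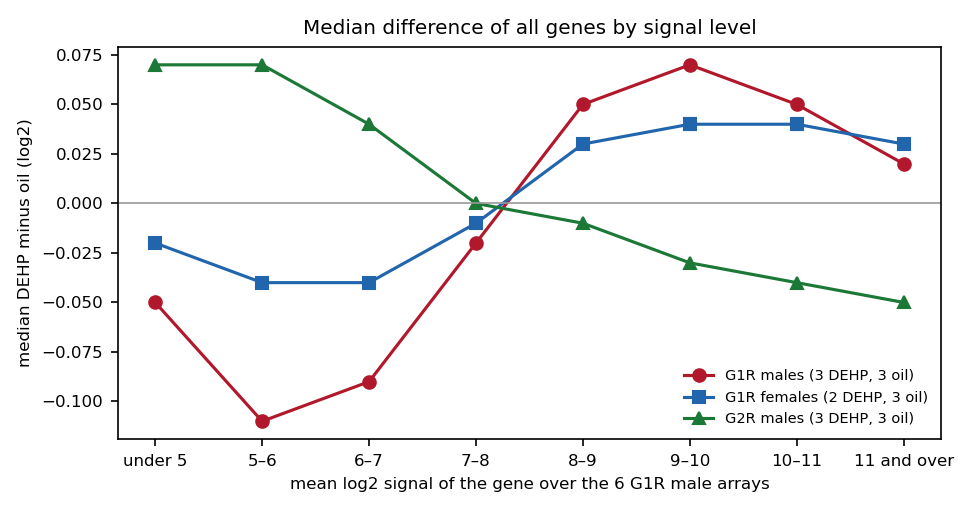
Median DEHP minus oil difference (vertical axis, log2) of all genes in bins of mean log2 signal over the 6 G1R male arrays (horizontal axis), for G1R males, G1R females and G2R males. The male line runs from -0.11 in the bin from 5 to 6 to 0.07 in the bin from 9 to 10, and the G2R line slopes the other way.

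The sorted cells carried the defining transcripts of prospermatogonia in every array. Ddx4, an RNA helicase of germ cells, lay between 11.52 and 11.73, Dazl, a germ cell RNA-binding protein, between 12.30 and 12.53, Dnmt3l between 11.60 and 11.97 and Pou5f1, which encodes OCT4, between 10.51 and 11.28. The 16 prospermatogonium markers had a median difference of -0.06. At an unadjusted p under 0.05, 0 were higher and 1 was lower (6.25%, against 7.43% of all genes). That 1 was Piwil4, the nuclear PIWI protein of fetal male germ cells, at -0.23 (adjusted p of 0.283 in limma). RNA of somatic testis cells was also present and varied between arrays of 1 group. Cyp17a1, a steroidogenic enzyme of Leydig cells, gave 9.39, 8.23 and 9.19 in oil and 8.60, 9.82 and 8.32 in DEHP males. The mean over 8 fetal Leydig cell markers ranged from 7.16 to 7.55 in oil and from 7.18 to 7.70 in DEHP arrays. The means of 12 Sertoli cell markers (7.57 to 8.09 and 7.66 to 8.04) and 12 peritubular and interstitial markers (7.27 to 7.71 and 7.35 to 7.91) overlapped likewise. None of the members of these 3 lists had an unadjusted p under 0.05. Oocyte markers had a median of -0.04, macrophage markers of -0.18, mast cell markers of -0.10 and endothelial markers of 0.11. Of 10 endothelial markers, 1 was higher and 1 lower at an unadjusted p under 0.05 (10% each, against 8.69% and 7.43% of all genes). They were the adhesion molecule gene Pecam1 at 0.21 and the transcription factor gene Sox17 at -0.28 (adjusted p of 0.26 and 0.298 in limma). Fewer cells of a type and less of its RNA per cell cannot be told apart in these pooled cells.

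No gene of the PPAR response passed the adjusted test. Over 27 PPAR target genes measured, the median was 0.00 and the differences ran from -0.17 to 0.29. At an unadjusted p under 0.05, 1 was higher (3.7%, against 8.69% of all genes) and 0 were lower (against 7.43%). The 1 was Pex11a, a peroxisome division gene, with 8.43, 8.74 and 8.23 in oil and 8.75, 8.63 and 8.79 in DEHP males. Its values overlapped, and its difference of 0.26 (SE 0.11) had an adjusted p of 0.29 in limma. Angptl4, a secreted inhibitor of lipoprotein lipase, gave 7.60, 7.69 and 7.64 in oil and 7.56, 7.43 and 7.54 in DEHP males, a difference of -0.13 (adjusted p of 0.467). Of the receptors, Ppara differed by 0.02 (SE 0.0851), Ppard by 0.07 (SE 0.0906) and Pparg by -0.01 (SE 0.0856). Among 22 nuclear receptors and coregulators, 3 were higher (13.6%, against 8.69% of all genes) and 0 lower at an unadjusted p under 0.05, namely the glucocorticoid receptor gene Nr3c1 at 0.38 and the p160 coactivator genes Ncoa1 at 0.29 and Ncoa2 at 0.27, with adjusted p between 0.154 and 0.172 in limma. Their arrays did not overlap between groups. Of 28 genes of the xenobiotic and oxidative stress response, 2 were higher (7.14%, against 8.69% of all genes) and 0 lower at that p. They were the catalase gene Cat at 0.36 and Nfe2l2, which encodes the stress regulator NRF2, at 0.30.

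Genes of steroid synthesis were mixed. Of 14 measured, 3 were higher (21.4%) and 2 lower (14.3%) at an unadjusted p under 0.05, against 8.69% and 7.43% of all genes. The median was 0.02. Srd5a3, a polyprenol reductase of the steroid 5-alpha-reductase family, was higher by 0.36 and Hsd17b7, which acts in cholesterol synthesis, by 0.30, with adjusted p of 0.191 and 0.16 in limma. Cyp21a1, the adrenal 21-hydroxylase, was the widest of the lower ones, with 6.07, 6.19 and 6.11 in oil and 5.58, 5.63 and 5.79 in DEHP males, but its signal was dim (difference -0.46, adjusted p of 0.172). Hsd17b3, the testosterone-forming dehydrogenase that the study names, gave 7.76, 7.15 and 8.07 in oil and 7.21, 7.95 and 7.95 in DEHP males. The 2 groups overlapped and the difference was 0.04, with an SE of 0.43 that leaves shifts of nearly a doubling either way undetectable. Of 22 genes of cholesterol synthesis and uptake, 2 were higher (9.09%) and 1 was lower (4.55%), near the shares of all genes. Among them were Nsdhl at 0.28 and Mvd at -0.25, both enzymes of the pathway.

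**Figure D4:**
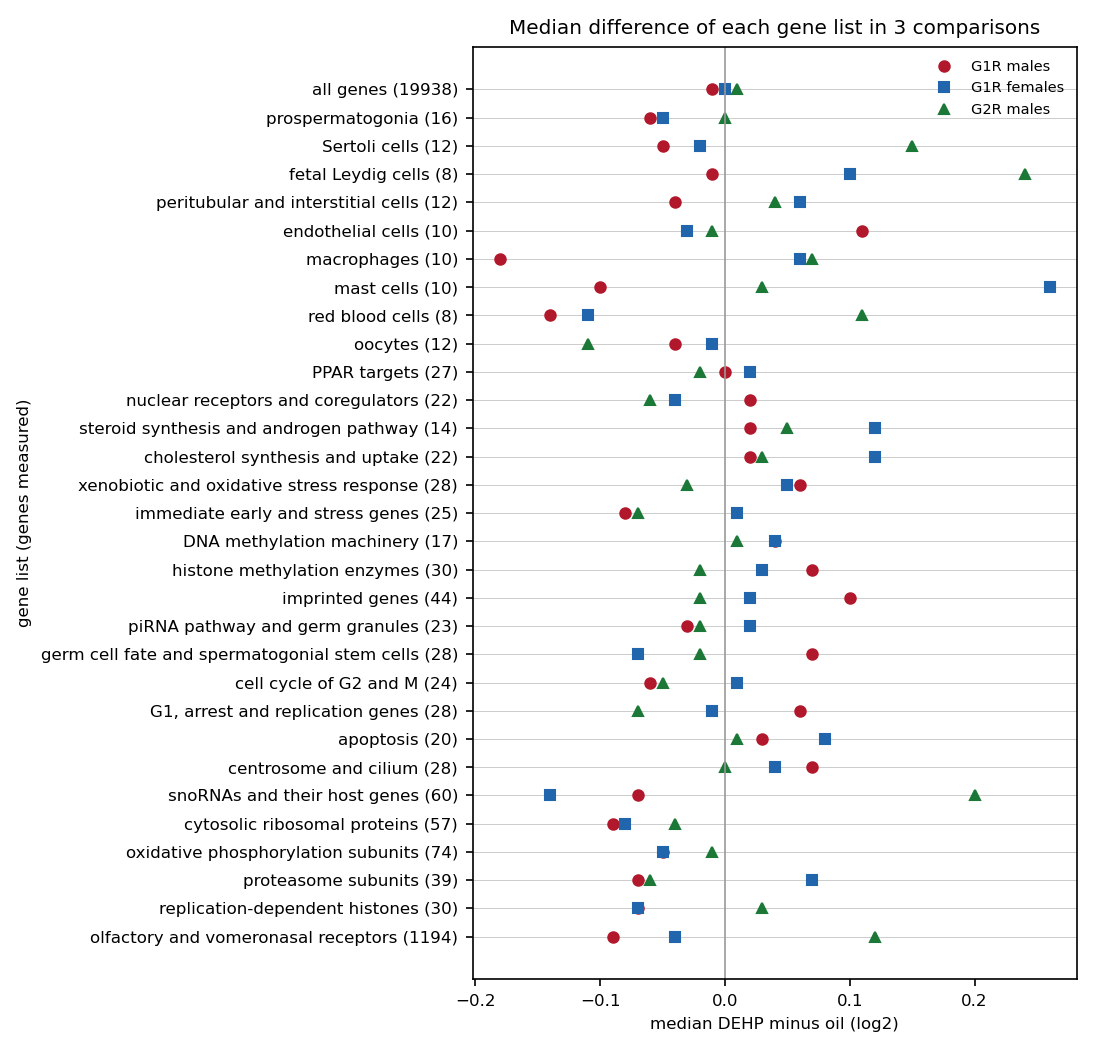
Median DEHP minus oil difference (horizontal axis, log2) of each gene list (vertical axis, with the number of genes measured) in G1R males, G1R females and G2R males. In G1R males the list medians lie between -0.18 for macrophage markers and 0.11 for endothelial markers, around -0.01 for all genes.

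The enzymes that write DNA methylation at this stage showed small differences that did not pass the test. Dnmt3a gave 10.92, 10.99 and 10.87 in oil and 10.87, 11.08 and 11.09 in DEHP males, a difference of 0.09 (SE 0.0959). Dnmt3l differed by -0.15 (SE 0.104). The list of DNA methylation genes, of which 17 were measured, also holds the insulator gene Ctcf and the corepressor gene Trim28. At an unadjusted p under 0.05, 2 were higher (11.8%) and 1 was lower (5.88%), against 8.69% and 7.43% of all genes. The higher ones were Tet2 and Ctcf (0.25), and the lower one was Mbd3 (-0.25). Tet2, a dioxygenase that oxidises methylcytosine, was the widest of them, with 8.54, 8.56 and 8.45 in oil and 8.75, 9.08 and 8.72 in DEHP males. Its groups did not overlap, at a difference of 0.34 (SE 0.0881) and an adjusted p of 0.107 in limma.

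Among 30 histone methylation enzymes, 6 were higher (20%) and 1 was lower (3.33%) at an unadjusted p under 0.05, against 8.69% and 7.43% of all genes and 14.8% and 3.41% at levels from 8 to 10, and the median was 0.07, close to the 0.06 of all genes with a mean level from 8 to 10. Ezh2, the catalytic subunit of the Polycomb complex that methylates H3K27, gave 9.52, 9.68 and 9.81 in oil and 9.93, 10.10 and 10.14 in DEHP males. The lowest DEHP value exceeded the highest oil value, and the difference was 0.39 (SE 0.0909, adjusted p of 0.0894 in limma). Its paralog Ezh1 was the 1 lower member, at -0.22 with overlap. The H3K36 methyltransferase gene Setd2 was higher by 0.30 and the H3K4 demethylase gene Kdm5a by 0.28. Kmt2c and Ehmt2, methyltransferases of H3K4 and H3K9 that the study names, differed by 0.13 (SE 0.0831, adjusted p of 0.473) and -0.08 (SE 0.0919, adjusted p of 0.753), both with overlap.

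Of 44 imprinted genes measured, none passed the adjusted test. At an unadjusted p under 0.05, 5 were higher (11.4%) and 0 lower, a share of higher genes near the 8.69% of all genes and under the 14.8% of genes with a mean level from 8 to 10. Without overlap, 7 were higher (15.9%, against 11.7% of all genes) and 0 lower (against 11.4%), and the median was 0.10 against -0.01 over all genes and 0.06 over genes with a mean level from 8 to 10. The median was 0.03 without DEHP replicate 2 and 0.06 under quantile normalization. Besides Slc38a4, the 5 were Mest, Inpp5f, Sfmbt2 and Mcts2. Mest, a paternally expressed hydrolase gene, gave 10.07, 10.05 and 10.29 in oil and 10.50, 11.05 and 10.64 in DEHP males. The difference was 0.59 (SE 0.199, adjusted p of 0.182 in limma). DEHP replicate 2 was the highest, and it was also the DEHP array with the highest means of fetal Leydig (7.70, against 7.25 and 7.18), Sertoli (8.04, against 7.66 and 7.80) and peritubular and interstitial markers, whose part in the Mest and other imprinted values was not tested. In females, with 2 DEHP arrays, Mest differed by 0.98 (SE 0.223) but missed the adjusted test (adjusted p of 0.352 in limma). In G2R males it differed by -0.03 (SE 0.199). The phosphatase gene Inpp5f, the Polycomb gene Sfmbt2 and the retrogene Mcts2 were each higher by 0.27, with adjusted p of 0.1, 0.161 and 0.216. Igf2, the paternally expressed growth factor gene, differed by 0.05 and Dlk1, a Notch-like ligand gene, by -0.01, both with overlap.

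**Figure D5:**
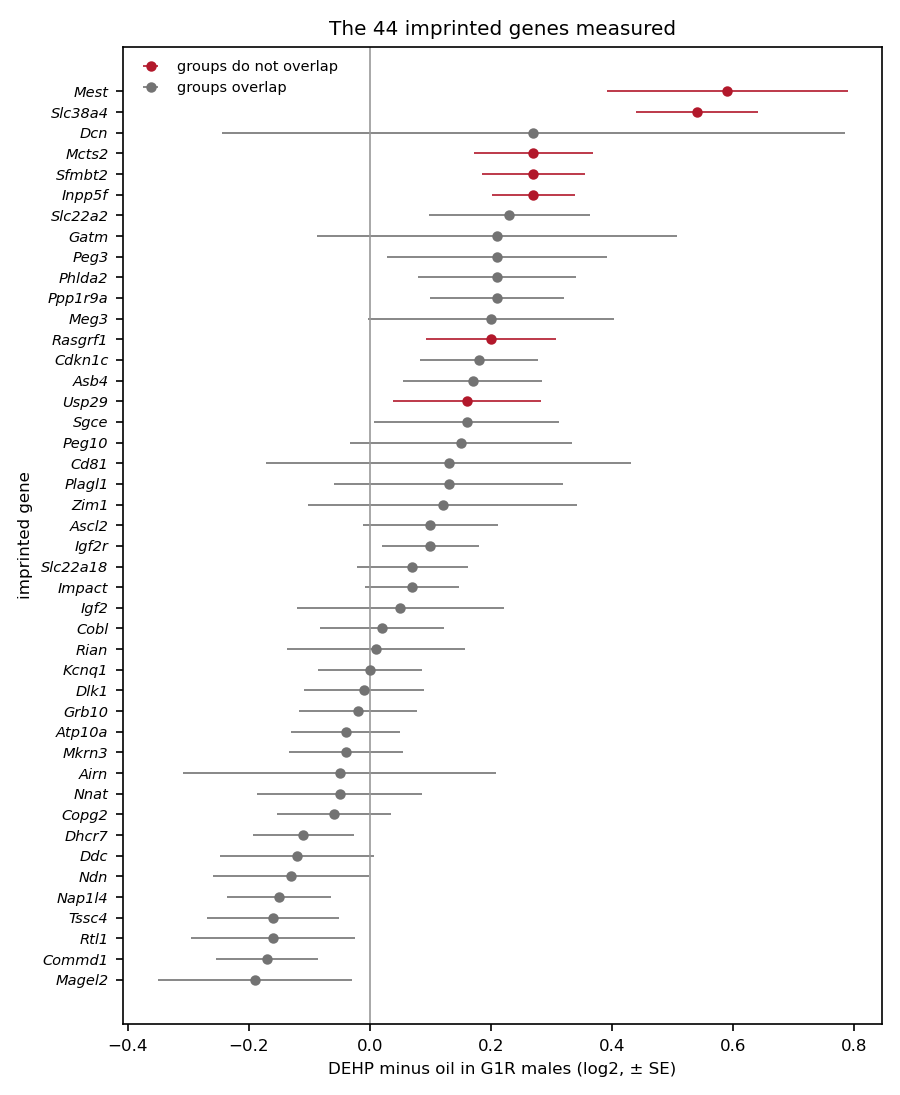
DEHP minus oil in G1R males (horizontal axis, log2, with SE bars) of the 44 imprinted genes measured (vertical axis), coloured by whether the 3 DEHP and 3 oil arrays overlap. Values run from -0.19 for Magel2 to 0.59 for Mest, and the 7 genes without overlap are all higher.

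Of 28 genes of germ cell fate and pluripotency, 5 were higher (17.9%) and 0 lower at an unadjusted p under 0.05. The median was 0.07, and both values were close to those of all genes with a mean level from 8 to 10 (14.8% and 0.06). Without overlap, 8 were higher (28.6%, against 11.7% of all genes) and 1 lower (3.57%, against 11.4%). Shares without overlap were not computed by level. Dppa2, a chromatin protein of pluripotent and germ cells, gave 9.98, 9.95 and 10.14 in oil and 10.44, 10.29 and 10.43 in DEHP males. Etv5, a transcription factor of spermatogonial stem cell renewal, gave 8.04, 7.89 and 8.17 in oil and 8.36, 8.38 and 8.40 in DEHP males. Neither gene overlapped between groups, and the differences were 0.37 (SE 0.102, adjusted p of 0.122 in limma) and 0.35 (SE 0.0988, adjusted p of 0.126). The pluripotency factor genes Sox2 (0.47) and Nanog (0.29) and the forkhead factor gene Foxo1 (0.20) were the other 3. In females the values of Dppa2, Etv5 and Sox2 were -0.20, -0.01 and -0.34, and their gaps to the male values passed for none. Of 23 genes of the piRNA pathway, which silences transposons in these cells, 0 were higher and 3 lower at an unadjusted p under 0.05. That is 13% lower, against 7.43% of all genes and 3.3% at levels from 10 to 11, where the list median lies. The widest was Pld6, a mitochondrial endonuclease of piRNA formation, at -0.29 (adjusted p of 0.189 in limma). Of 12 oocyte markers, 1 was higher (8.33%) and 2 lower (16.7%) at an unadjusted p under 0.05, against 8.69% and 7.43% of all genes. The synaptonemal complex gene Sycp3 was higher by 0.46, and by 0.22 to 0.59 with an array left out. The lower ones were Sohlh1 (-0.27, with overlap) and Dppa3, a protector of maternal methylation (-0.45). Adjusted p of Sycp3, Sohlh1 and Dppa3 were 0.247, 0.198 and 0.325 in limma.

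Of 28 genes of G1, arrest and replication, 4 were higher (14.3%) and 0 lower at an unadjusted p under 0.05, with a median of 0.06, about the share and the median of all genes with a mean level from 8 to 10. Among the 4 were the inhibitor gene Cdkn2c (0.35) and the transcription factor gene E2f3 (0.38). Of 24 genes of G2 and mitosis, 0 were higher and 2 lower (8.33%, against 7.43% of all genes), with a median of -0.06, namely the kinetochore gene Ndc80 (-0.40) and the chromosomal passenger gene Birc5 (-0.37). Adjusted p of Cdkn2c, E2f3, Ndc80 and Birc5 lay between 0.183 and 0.243 in limma. Of 20 apoptosis genes, 3 were higher (15%, against 8.69% of all genes) and 1 was lower (5%, against 7.43%). Casp8, the initiator caspase, was higher by 0.45 (adjusted p of 0.207 in limma). Of 28 centrosome and cilium genes, 7 were higher (25%, against 8.69% of all genes and 14.8% at levels from 8 to 10) and 0 lower, with a median of 0.07 that was close to the 0.06 of that band. The widest was the Bardet-Biedl gene Bbs4 at 0.38 (adjusted p of 0.263). Of 25 immediate early and stress genes, 1 was higher (4%, against 8.69% of all genes) and 3 lower (12%, against 7.43%). Among them were the phosphatase gene Dusp1 at 0.37 and the transcription factor gene Klf2 at -0.32.

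Of 57 cytosolic ribosomal protein genes, 45 had a negative difference, 1 was higher and 8 were lower (14%) at an unadjusted p under 0.05, and the median was -0.09. Of all genes with a level of 11 or more, where the median of this list lies, 3.96% were lower. Of 74 oxidative phosphorylation subunits, 2 were higher and 11 lower (14.9%, against 7.43% of all genes and 2.77% at levels from 9 to 10), with a median of -0.05 that was 0.01 without DEHP replicate 2. The cytochrome c oxidase gene Cox6a1 gave 11.16, 11.23 and 11.13 in oil and 10.87, 10.93 and 10.39 in DEHP males. DEHP replicate 3 was the lowest, and the difference was -0.44 (SE 0.126, adjusted p of 0.126 in limma). Proteasome subunits had a median of -0.07, replication-dependent histones and the small nucleolar RNAs with their hosts likewise of -0.07. The 1194 olfactory and vomeronasal receptor genes, which are dim on the array, had a median of -0.09, and one of -0.03 under cyclic loess. At an unadjusted p under 0.05, 9 were higher (0.754%) and 116 lower (9.72%). Of all genes at levels from 5 to 6, where the list median lies, 1.64% were higher and 12.1% lower. Apart from Hbb-bh2, no member of any list passed the adjusted test.

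The hairpins of microRNAs were examined as a further class. The class was chosen after its values were seen, and none of its members passed the adjusted test. MicroRNAs are cut from hairpin transcripts and pair with target mRNAs through the seed, bases 2 to 8 of the mature strand. The array measures hairpin or host transcript in total RNA rather than the mature strand. Of 300 hairpins, 2 were higher and 53 lower (17.7%) at an unadjusted p under 0.05, against 7.27% lower of other genes, with a median of -0.12 from a median level of 5.78. Of the 88 above the dim boundary of 6.7, 0 were higher and 29 lower (33%, against 5.87% of other genes above it), with a median of -0.19. At levels from 6.7 to 8, 17 of 63 hairpins were lower (27%) with a median of -0.16, and 578 of 6128 other genes (9.43%) with a median of -0.03. The median over the 300 was -0.05 in females and 0.04 in G2R males. Against the same oil arrays as DEHP it was -0.15 in VZ males and -0.06 in BPA males, and above the dim boundary -0.23 and -0.11.

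The following sequences are mature strands of 4 of the lower hairpins with the smallest p, shown because 3 of them share their seed with further hairpins on the array. They are from RefSeq (GRCm38.p6), written 5′ to 3′ with the seed in capitals.
mmu-miR-129-5p (Mir129-1, chr6:29022624-29022644, plus strand): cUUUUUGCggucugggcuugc
mmu-miR-93-5p (Mir93, chr5:138165574-138165596, minus strand): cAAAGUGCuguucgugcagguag
mmu-miR-27a-3p (Mir27a, chr8:84208727-84208747, plus strand): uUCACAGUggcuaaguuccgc
mmu-let-7i-5p (Mirlet7i, chr10:122985698-122985719, minus strand): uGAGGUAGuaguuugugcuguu
Mir129-1 gave 7.88, 7.78 and 7.75 in oil and 7.48, 7.22 and 7.26 in DEHP males, a difference of -0.48 (SE 0.103, adjusted p of 0.0734 in limma). A second hairpin with the same seed, Mir129-2, differed by -0.16. Mir93 gave 7.55, 7.33 and 7.38 in oil and 7.11, 6.94 and 7.10 in DEHP males, a difference of -0.37 (SE 0.0921, adjusted p of 0.1). Neither hairpin overlapped between groups. The seed AAAGUGC is carried by 6 hairpins, namely Mir93 itself and others such as Mir17, Mir20a and Mir106a of the miR-17 family. All 6 were negative, from -0.37 for Mir93 to -0.12, with a median of -0.23. The 2 with an unadjusted p under 0.05 were Mir93, which was chosen for its small p, and Mir20b (-0.27). Over all 300 hairpins the median was -0.12, and 17.7% were lower at that p. Of the 9 hairpins with the let-7 seed GAGGUAG, the chosen Mirlet7i included, 7 were negative. Their differences ran from -0.32 for Mirlet7i to 0.11, with a median of -0.11. Mir27a differed by -0.30 and Mir375 by -0.50 (adjusted p of 0.126 and 0.0861).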

How the data were processed

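The deposited values are log2 expression of 35556 probes on 32 arrays, which the authors made with RMA and analysed in Partek by ANOVA with linear contrasts (versions not given in the sources used here). Probes were named through the platform annotation, with 21789 naming a single gene, 1621 several and 12146 outside it. Where a gene had several probes, the one with the highest mean over all arrays was kept for counts over 19938 genes. A linear model over all 11 groups was fitted with limma 3.58.1 in R 4.3.3 (21 residual degrees of freedom), moderated, and adjusted by Benjamini-Hochberg over all probes, and it was tested on simulated data. An exact permutation test of 3 against 3 cannot go below 0.1. The comparison, lists and naming rule were chosen with earlier results of these data known. The rule names genes called, the 12 highest and 12 lowest differences at 1.5-fold, an unadjusted p under 0.05, no overlap and a mean above 6.7, up to 4 genes per list by p, cell type markers, genes the study names and 3 genes per difference of effects. Genes outside it, such as Dnmt3a, Ppard, Pparg, Igf2 and Dlk1, were chosen after their values were seen. Several members of the lists were not analysed here. Array medians were 7.47 to 7.48 in the 6 arrays, and correlations were 0.9889 to 0.9907 within oil, 0.9891 to 0.9894 within DEHP and 0.9849 to 0.9906 between them. The number of arrays limits the precision. Alternatives were other sets of arrays, normalizations, filters, weights, variance models, a replicate block and leaving out each array. The level bands under other settings, and the BPA and VZ males as reference, were added after seeing the data.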

Additional observations from a re-analysis of the deposited data

How the results depend on the processing

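The 2 calls became 38 with unmoderated least squares, 17 over the 23 G1R arrays, 19 above the dim boundary, 54 over single-gene probes, 36 under cyclic loess, 14 under quantile normalization, 99 with array quality weights and 22 with a variance trend, but 1 over the 12 G1R male arrays and 0 over the 6 arrays. Leaving out 1 array gave 0 (DEHP replicate 2) to 49 (DEHP replicate 1). The 330 looser calls became 149 above the dim boundary and 48 over single-gene probes, and 300 to 508 (without oil replicate 2) with an array left out. The 0 calls between males and females became 1 (Dnah17) with unmoderated least squares and 0 to 1 with an array left out. The 0 between G1R and G2R males became 3 above the dim boundary, 15 over single-gene probes, 3 under cyclic loess, 22 with weights, 3 with a variance trend, and 0 to 604 with an array left out (604 without G2R DEHP replicate 2, 8 without oil replicate 3). The causes were not tested. Replicate numbers did not pair the arrays (correlations of deviations of -0.06, -0.06 and 0.04, 1 oil array best matched by its own number), and a replicate block gave 4 calls over all 32 arrays and 0 over the 6, with 335 and 378 looser calls. Of the 168 named genes, Fdx1 (-0.01) and Hsd17b3 (-0.06) reversed with weights. With an array left out, Fdx1 ranged from -0.09 to 0.12, Hsd17b3 from -0.22 to 0.29, Cyp17a1 from -0.48 to 0.27, Star from -0.11 to 0.12, Scarb1 from -0.08 to 0.02, Cyp11a1 from -0.23 to 0.01, Acta2 from -0.34 to 0.11, Figla from -0.09 to 0.12 and Inhba from -0.18 to 0.25. Of the 30 list medians, 17 of 180 values moved by over the spread between arrays with an array left out and 7 of 90 under the other settings.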
